A study of Mus musculus with 2 samples.

Results

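Noncoding host transcripts of small nucleolar RNAs (snoRNAs) were examined in 2 single-cell libraries of mouse LSK (Lin- Sca-1+ c-Kit+) bone marrow cells, the sorted fraction that contains haematopoietic stem and progenitor cells. The members were 10 genes given by symbol, namely Gas5, Snhg1, Snhg3, Snhg4, Snhg5, Snhg6, Snhg8, Snhg9, Snhg12 and Snhg15. Of these, 3 (Snhg6, Snhg9 and Snhg12) had a row among the 27998 genes of the count matrices of both libraries. The other 7, Gas5 among them, had no row under these or older symbols and were not analysed here, so each result concerns 3 genes.

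The labels gave 1 library of Trmt6 WT cells (genotype Trmt6fl/fl) and 1 library of Trmt6 cKO cells (genotype Trmt6fl/fl, MX1-cre), both from 3-month-old mice and both carrying the floxed allele. Mx1-Cre is a recombinase that interferon induces, in haematopoietic cells and elsewhere, and TRMT6 is the partner of the methyltransferase TRMT61A that places m1A on tRNAs. The study's description of the experiment names Trmt6+/+ Mx1-Cre and Trmt6fl/fl Mx1-Cre mice given pIpC, and its methods name Trmt6fl/+ Mx1-Cre beside Trmt6fl/fl Mx1-Cre mice, so the control genotype differs between these sources and the labels. The number of mice behind each library was not given. Genotype, library and depth went together, there was 1 library per group, and no p-value could be given. All intervals are 95% intervals and cover counting error only.

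snoRNAs guide the chemical modification of ribosomal RNA: those with C and D boxes direct ribose methylation, and those with H and ACA boxes direct the conversion of uridine to pseudouridine. In mammals most of them are cut out of introns, and their host transcripts carry them as a by-product of splicing. The spliced noncoding hosts commonly begin with a 5′ terminal oligopyrimidine (TOP) stretch, the feature by which mTORC1 controls the translation of ribosomal protein mRNAs. Their exons hold only short reading frames, and many of these RNAs are degraded by nonsense-mediated decay (NMD), a pathway that acts on RNA while it is being translated.

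The 3 counted genes were located in GENCODE M21 (GRCm38), the build of the deposited files. Snhg6 (ENSMUSG00000098234) is annotated as lincRNA at chr1:9941959-9944118 on the minus strand and carries Snord87 at chr1:9942463-9942549, intronic in 5 of 5 transcripts. Snhg9 (ENSMUSG00000090101) has a single transcript of 183 bases in 2 exons at chr17:24719531-24719965 on the minus strand, with Snora78 in its intron at chr17:24719676-24719803. Snhg12 (ENSMUSG00000086290) is annotated as lincRNA at chr4:132308623-132311024 on the plus strand, with 10 transcripts. It carries Snora16a (chr4:132309465-132309600), Snora44 (chr4:132309941-132310069), Snora61 (chr4:132310240-132310369) and Snord99 (chr4:132310691-132310764), which are intronic in 5 to 7 of its transcripts. The snoRNAs themselves had no row in the matrices, so the counts speak of the spliced, polyadenylated hosts and not of the guides. A guide of each host, and of both kinds, is printed here 5′ to 3′ as annotated in GENCODE M21, with the C, D or ACA box in capitals.
Snord87 (in Snhg6): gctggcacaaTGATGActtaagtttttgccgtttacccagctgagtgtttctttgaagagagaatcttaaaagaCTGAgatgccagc
Snora78 (in Snhg9): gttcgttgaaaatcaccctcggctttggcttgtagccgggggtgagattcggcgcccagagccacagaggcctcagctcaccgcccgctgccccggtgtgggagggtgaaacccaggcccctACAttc
Snora61 (in Snhg12): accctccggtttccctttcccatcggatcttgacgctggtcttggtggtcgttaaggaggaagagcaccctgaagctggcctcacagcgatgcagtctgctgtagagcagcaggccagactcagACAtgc
Snord99 (in Snhg12): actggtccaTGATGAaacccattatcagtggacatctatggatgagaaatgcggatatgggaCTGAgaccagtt

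The annotated starts of the hosts differed. A start with C as the first base of 5 or more pyrimidines was annotated for 1 of 5 Snhg6 transcripts and 3 of 10 Snhg12 transcripts, against 2.02% of the 141767 transcripts in GENCODE M21, while the single Snhg9 transcript began with a G. The first 30 bases of the longest transcript with such a start, or of the only transcript for Snhg9, are printed next, with leading pyrimidines in capitals.
Snhg6-203: CTTTCTCggcagcgccgtagagcgcgagca
Snhg12-210: CCTTTCTCgcttcatccgcggtccctgtct
Snhg9-201: gccgaagccgcgccctacaccagccggaag
The start of Snhg12 in RefSeq, at base 132308678 of chromosome 4, has 6 leading pyrimidines but T as its first base and so has no such start, against 2.51% of 32851 RefSeq starts that have one. The Snhg9 start in RefSeq is the one printed here. In the Snhg9 promoter window below, a run of pyrimidines with C first ends at the base just before that start. The start of Snhg12-210, at base 132308676, lies close to the RefSeq start of Snhg12. The call thus depended on the exact base annotated, for Snhg9 as for Snhg12.
Snhg12 (RefSeq): TTTCTCgcttcatccgcggtccctgtctgt
The reading frame opened by the first ATG ended more than 50 bases before the last exon junction, the placement of a stop codon that NMD is known to act on, in 4 of 5 Snhg6 and 9 of 10 Snhg12 transcripts and not in the Snhg9 transcript. These frames had 9 to 53 codons in Snhg6, 10 to 54 in Snhg12 and 19 in the short, 2-exon Snhg9. No share over all transcripts was taken, so the counts do not show whether this placement is unusual. Of the 3 genes, RefSeq promoter windows (GRCm38.p6, 250 bases before to 50 bases after the start) were matched for Snhg9 and Snhg12. On either strand, neither window held TGATGNAA, a site of ATF and C/EBP factors present in 3.97% of 32851 such windows, or TGACGTCA, the cAMP response element present in 1.79%. CACGTG, the E-box that MYC and other factors can bind, was present in 7.15% of windows and occurred once in that of Snhg9, at chr17:24719916-24720215 on the minus strand. It is printed here with the E-box in capitals, to show where the match lies.
Snhg9 promoter window: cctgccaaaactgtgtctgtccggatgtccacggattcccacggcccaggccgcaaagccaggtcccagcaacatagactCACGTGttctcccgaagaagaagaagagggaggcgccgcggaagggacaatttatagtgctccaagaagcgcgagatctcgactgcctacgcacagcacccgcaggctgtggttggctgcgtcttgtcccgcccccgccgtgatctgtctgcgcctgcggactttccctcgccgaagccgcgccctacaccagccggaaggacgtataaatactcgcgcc

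Both libraries were checked before the comparison. The kept cells numbered 8149 in WT and 8480 in cKO, with 42607221 and 88027954 UMIs (unique molecular identifiers, each a counted RNA molecule) and medians of 4243 and 10139 UMIs per cell. The libraries shared 24 cell barcodes (0.271% of WT and 0.259% of cKO barcodes). With levels given as CPM, the UMIs of a gene scaled to a common total per library, Trmt6 was at 64.0 CPM for WT and 50.4 CPM for cKO cells (log2 ratio -0.34, -0.41 to -0.27). Counting was from the 3′ end of transcripts, and the labels and methods do not name the deleted exons, so this value does not show how complete the deletion was. Of the antigens and markers of sorted LSK cells, Kit had 62.0 CPM (WT) and 21.2 CPM (cKO), Ly6a (Sca-1) 34.6 and 142 CPM, and Cd34 353 and 203 CPM.

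Over all kept cells, Snhg6 and Snhg12 were higher and Snhg9 was lower in the cKO library. Snhg6 was counted with 4944 UMIs in WT and 25483 UMIs in cKO, which is 116 CPM (113 to 119) and 289 CPM (286 to 293) (log2 ratio 1.32, 1.27 to 1.36). Snhg12 had 1270 and 6115 UMIs, or 29.8 CPM (28.2 to 31.5) and 69.5 CPM (67.7 to 71.2) (log2 ratio 1.22, 1.13 to 1.31). Both were thus more than 2 times as high in cKO as in WT, with intervals that did not overlap. Snhg9 had 3956 and 4471 UMIs, or 92.8 CPM (90.0 to 95.8) and 50.8 CPM (49.3 to 52.3) (log2 ratio -0.87, -0.93 to -0.81). The summed level of the 3 genes was 239 CPM for WT against 410 CPM for cKO (log2 ratio 0.78, 0.75 to 0.81). That sum joins genes that differed in opposite directions.

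These ratios were set beside those of the 9124 genes that reached 5 CPM in at least 1 library. Their median log2 ratio was -0.06, and 43.3% were above 0. A ratio of at least 2-fold was reached by 2 of the 3 members upward (Snhg6 and Snhg12), beside 2.94% of all genes, and by none downward, beside 5.24% of all genes. Only 169 genes had a higher ratio than Snhg6 and 198 a higher one than Snhg12, while 616 had a lower one than Snhg9. Median-of-ratios size factors moved the median of all genes to 0.04 and the share above 0 to 53.5%, and the members to 1.42 for Snhg6, 1.32 for Snhg12 and -0.77 for Snhg9. The counts past 2-fold depended on the processing. Upward, 1 member was left with each cell scaled first or thinned and 0 in cells with 4000 to 8000 UMIs. Downward, 1 was reached in thinned cells and in cells outside the cycle gates described below.

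**Figure D1:**
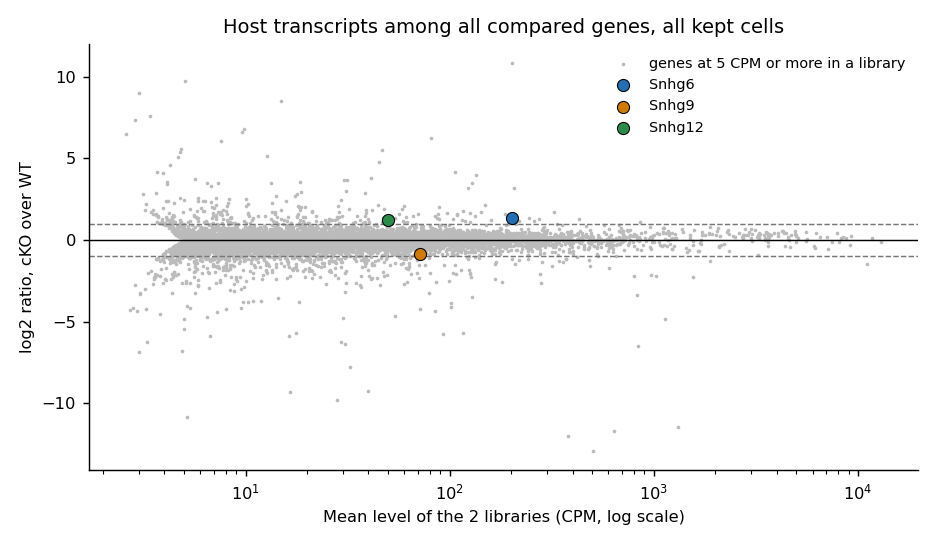
Each point is 1 of the 9124 genes that reached 5 CPM in at least 1 library, with its mean level on a log axis and its log2 ratio of cKO over WT over all kept cells; dashed lines mark 2-fold. Snhg6 (1.32) and Snhg12 (1.22) lie above the upper line and Snhg9 (-0.87) just inside the lower one.

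In single cells thinned to 2000 UMIs, so that each cell gave the same number of UMIs, the shares of cells with a UMI differed in the same directions. Snhg6 was detected in 20.7% (19.8 to 21.6) of WT cells and 39.0% (37.9 to 40.0) of cKO cells, against 42.5% and 84.2% before thinning. For Snhg9 the shares were 18.8% (18.0 to 19.7) and 9.62% (9.0 to 10.3), and for Snhg12 they were 6.68% (6.14 to 7.25) and 12.3% (11.6 to 13.1), with Clopper-Pearson intervals. Before thinning Snhg9 was detected in 36.7% of WT and 38.8% of cKO cells, an order opposite to that of the levels, with the cKO cells being deeper. No cell type in these libraries is known to lack the hosts, so no background share could be set beside these values.

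The size of the difference depended on the depth of the cells compared. In cells with 2000 to 4000 UMIs (3555 WT and 214 cKO cells), Snhg6 was at 123 CPM among WT and 172 CPM among cKO cells (log2 ratio 0.49, 0.20 to 0.75). In the next band, 4000 to 8000 UMIs (3160 and 2138 cells), it was at 112 and 205 CPM, a ratio of 0.87 (0.79 to 0.96). With 8000 to 16000 UMIs (1128 and 5313 cells) the levels were 117 and 296 CPM, and with 16000 to 32000 UMIs (110 and 710 cells) 114 and 357 CPM, ratios of 1.34 (1.26 to 1.42) and 1.65 (1.46 to 1.85). Snhg6 was therefore near one level in WT cells of every depth and was higher in deeper cKO cells.

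Snhg12 showed opposite gradients in the 2 libraries. In WT its level was 39.6, 30.9, 21.7 and 16.7 CPM from the shallowest to the deepest band, and in cKO it was 37.6, 58.8, 71.4 and 73.3 CPM. Its log2 ratio went from -0.05 (-0.70 to 0.50) in the shallowest band, where no difference could be detected with 26 cKO UMIs, to 0.93, 1.72 and 2.11 (1.64 to 2.68). Snhg9 was lower in deeper cells of both libraries, at 123, 89.9, 72.9 and 66.8 CPM in WT and 76.7, 60.3, 48.8 and 48.1 CPM in cKO. Its ratio lay between -0.67 (-1.11 to -0.29) and -0.48 (-0.75 to -0.19) in all 4 bands, closer to 0 than the -0.87 over all cells. At 4000 to 8000 UMIs, the band best filled in both libraries, 94.3%, 94.8% and 11.5% of 9326 genes had a lower ratio than Snhg6, Snhg12 and Snhg9. The summed members stood at 286 CPM in both libraries in the shallowest band, where the interval of the ratio was -0.21 to 0.21. Depth went together with lineage and cycle, and their separate parts in these gradients were not tested.

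**Figure D2:**
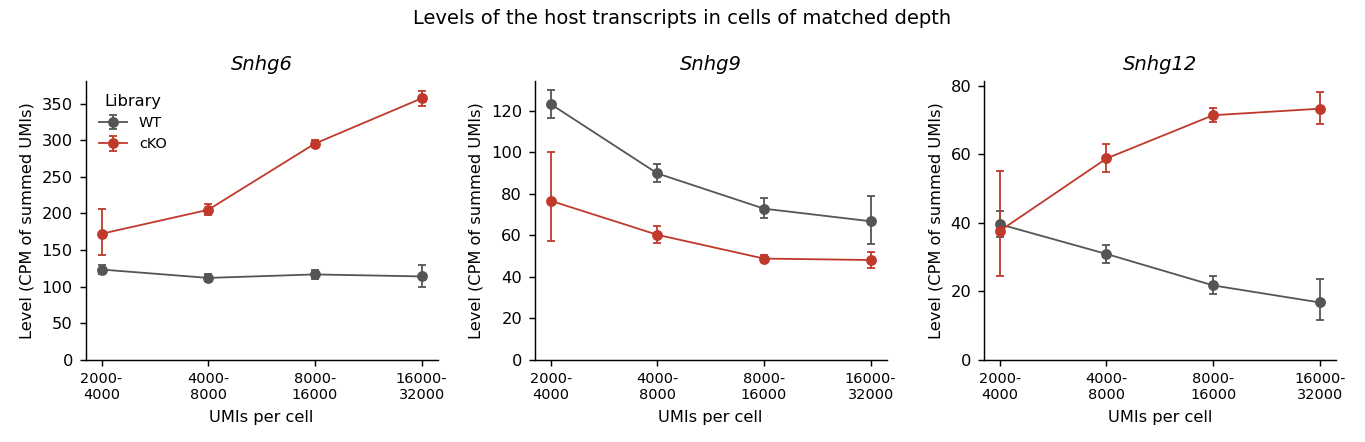
Level in CPM of each host against the UMIs per cell, in 4 bands, for WT (grey) and cKO (red); points are summed UMIs per band and bars are exact 95% Poisson intervals. Snhg6 is flat in WT (112 to 123 CPM) and climbs in cKO (172 to 357 CPM), Snhg12 diverges, and Snhg9 declines in both.

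Lineage gates were set on the number of marker genes detected in each cell after thinning to 2000 UMIs. A gate is a range of marker detection and not a cell type, and in the HSC gate 80.4% of WT and 76.8% of cKO cells had just the minimum of 2 markers. Described are the 5 gates with at least 50 cells in both libraries: HSC (haematopoietic stem cell, 470 WT and 859 cKO cells), LMPP (lymphoid-primed, 611 and 158), GMP (granulocyte-monocyte, 1992 and 159), megakaryocyte (326 and 61) and MHC class II (264 and 270). Cells in no gate made up 44.2% of WT and 79.0% of cKO cells, and they held 35.4% of the WT and 84.9% of the cKO Snhg6 UMIs.

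In the HSC gate, the WT level of Snhg6 was 112 CPM (96.6 to 130) and the cKO level 237 CPM (225 to 248) (log2 ratio 1.07, 0.85 to 1.30). Snhg12 was at 38.3 CPM (29.3 to 49.2) and 60.4 CPM (54.8 to 66.5), a ratio of 0.65 (0.27 to 1.07). Snhg9 was at 131 CPM (114 to 150) and 45.4 CPM (40.5 to 50.7), a ratio of -1.53 (-1.78 to -1.27). The higher Snhg6 and the lower Snhg9 partly offset each other there, and the sum stood at 282 and 343 CPM (0.28, 0.14 to 0.43). In this gate 1 member was at least 2-fold higher (Snhg6), beside 3.15% of 9632 genes, and 1 at least 2-fold lower (Snhg9), beside 9.93%. The WT cells of the gate were shallower, with a median of 2986 UMIs against 7533 UMIs in cKO. Within the gate, cells with 2000 to 4000 UMIs gave Snhg9 a ratio of -1.08 (-2.11 to -0.28) and those with 4000 to 8000 UMIs -0.88 (-1.35 to -0.38), both closer to 0 than the gate as a whole. The same bands gave Snhg6 0.47 (-0.17 to 1.04) and 0.90 (0.50 to 1.36). For the sum they gave -0.14 (-0.62 to 0.28) and 0.37 (0.10 to 0.67), so no difference of the sum was detectable in the shallower band. In HSC-gated cells outside the cycle gates described below, the sum had a ratio of 0.12 (-0.06 to 0.30). Markers of the other 9 lineages were fewer in the cKO cells of the gate for 9 of 9 lists, with mean summed UMIs per thinned cell of 0.03 to 2.80 in WT and 0.01 to 1.18 in cKO. The GMP list had the WT maximum, and the neutrophil list stood at 0.69 UMIs in WT and 0.01 UMIs in cKO. Their part in the result was not tested.

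The other gates shared the higher Snhg6. Its level in WT and cKO was 123 and 282 CPM in the LMPP gate, 125 and 284 CPM in the GMP gate, 94.6 and 277 CPM in the megakaryocyte gate, and 107 and 215 CPM in the MHC class II gate. The log2 ratios were 1.20 (0.98 to 1.41), 1.19 (1.06 to 1.31), 1.55 (1.24 to 1.87) and 1.0 (0.72 to 1.29), and no interval of a level in WT overlapped that in cKO. The ratio in the megakaryocyte gate exceeded that in the HSC gate by 0.48 (interval of the HSC minus megakaryocyte difference -0.86 to -0.10, normal approximation). It also exceeded those in the GMP gate (GMP minus megakaryocyte -0.36, -0.70 to -0.03) and the MHC class II gate (megakaryocyte minus MHC class II 0.55, 0.13 to 0.96), and the interval against the LMPP gate included 0, while the HSC, LMPP, GMP and MHC class II gates could not be told apart at this depth. At 4000 to 8000 UMIs the LMPP gate gave a ratio of 1.11 (0.71 to 1.5). In the same band the MHC class II gate gave a ratio of 0.27 (-0.20 to 0.75), and its level of 137 CPM in cKO rested on 84 UMIs. Among WT gates the order of Snhg6 levels ran from GMP through LMPP, HSC and MHC class II to megakaryocyte, and neighbours overlapped. Among cKO gates GMP, LMPP and megakaryocyte overlapped at the top, and MHC class II and HSC overlapped at the bottom. The 2 groups were not apart, since the megakaryocyte interval (240 to 319 CPM) also overlapped that of the HSC gate. Markers of the other 9 lineages were fewer in cKO for 9 of 9 lists in the GMP and megakaryocyte gates and for 7 of 9 in the LMPP and MHC class II gates, with mean summed UMIs per thinned cell of up to 2.68 in WT and 1.11 in cKO. The exceptions were B cell markers (0.147 and 0.494) and T or NK cell markers (0.797 and 0.873) in the LMPP gate, and B cell markers (0.155 and 0.319) and HSC markers (0.383 and 0.411) in the MHC class II gate. GMP markers stood at 2.40 and 0.753 UMIs in the LMPP gate. The gates' own markers also differed, at 20.3 and 13.7 UMIs in the GMP gate and 6.25 and 3.36 UMIs in the megakaryocyte gate. Their part in the results for the 3 hosts was not tested.

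Snhg12 was also higher in cKO in each gate as a point value, but 2 of the 5 intervals reached 0. In the GMP gate the WT level was 24.6 CPM and the cKO level 63.0 CPM (1.36, 1.07 to 1.63), and in the MHC class II gate the levels were 22.9 and 48.0 CPM (1.05, 0.46 to 1.72). The LMPP gate gave 37.9 and 51.6 CPM, with a ratio of 0.45 whose interval extended to 0 (0.19, -0.81 to 1.03, at 4000 to 8000 UMIs), and the megakaryocyte gate 24.9 and 38.6 CPM (0.64, -0.13 to 1.38). The GMP ratio exceeded that of the LMPP gate (LMPP minus GMP -0.91, -1.42 to -0.41) and that of the HSC gate (HSC minus GMP -0.71, -1.18 to -0.24). At matched depth more of the Snhg12 intervals reached 0: HSC-gated cells gave 0.16 (-1.21 to 1.19) at 2000 to 4000 UMIs and 0.73 (0.04 to 1.58) at 4000 to 8000 UMIs, and the MHC class II gate gave 0.87 (-0.06 to 1.90) at 4000 to 8000 UMIs. The GMP gate kept a ratio of 1.34 (0.88 to 1.76) at 8000 to 16000 UMIs.

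Snhg9 was the gene whose difference varied most between whole gates, which differed in depth. At 4000 to 8000 UMIs it did not stand out: over the HSC, LMPP and MHC class II gates its ratio ran from -0.88 to -0.11, and that of Snhg6 from 0.27 to 1.11. It was at 99.9 and 54.9 CPM in the LMPP gate (-0.86, -1.24 to -0.50), 96.5 and 54.3 CPM in the megakaryocyte gate (-0.81, -1.38 to -0.31) and 88.2 and 55.9 CPM in the MHC class II gate (-0.66, -1.04 to -0.28). Among LMPP-gated cells with 4000 to 8000 UMIs (253 WT and 54 cKO cells) the levels were 95.5 and 87.5 CPM, and the interval of the ratio (-0.11, -0.75 to 0.45) included 0, so no difference was detectable there at matched depth. The same band of the MHC class II gate gave -0.72 (-1.39 to -0.09), and no band of the megakaryocyte gate held 50 cells in both libraries. In the GMP gate the levels were 84.4 CPM (79.8 to 89.1) and 73.2 CPM (62.9 to 84.7), and the interval of the ratio (-0.20, -0.44 to 0.02) included 0. This value depended on the gate, at -0.61 with gates set on all UMIs (1689 WT and 277 cKO cells) and 0.17 with 1 more marker (1009 and 48 cells). The HSC and GMP ratios differed by -1.33 (-1.66 to -0.99). In WT the HSC gate had the highest Snhg9 level of the 5 gates and the GMP gate the lowest, and in cKO the GMP gate had the highest and the HSC gate the lowest. The intervals of the other 4 WT gates overlapped one another, and in cKO those of the LMPP, megakaryocyte and MHC class II gates overlapped both ends of the order. The WT cells were shallowest in the HSC gate and deepest in the GMP gate, with medians of 2986 and 6823 UMIs. At 4000 to 8000 UMIs the WT levels of 97.8 CPM (HSC), 95.5 CPM (LMPP) and 91.7 CPM (MHC class II) kept that order, but their intervals overlapped. GMP-gated cells with 8000 to 16000 UMIs gave a ratio of 0.36 (0.03 to 0.65) and those with 16000 to 32000 UMIs -0.37 (-0.83 to 0.08). The point values of the 2 bands thus differed in sign, but the second interval included 0 and the intervals overlapped.

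A ratio of at least 2-fold upward was reached by 1 of 3 members in the LMPP gate (4.30% of all genes), 2 in the GMP gate (2.88%), 1 in the megakaryocyte gate (5.77%) and 2 in the MHC class II gate (5.72%). No member reached it downward in these 4 gates, for which 9.95%, 5.37%, 11.1% and 8.75% of genes did. The 2 members counted in the MHC class II gate were both under 2-fold when cells of several gates were counted in each, at 0.90 for Snhg6 and 0.64 for Snhg12. With gates set on all UMIs, Snhg12 also passed 2-fold upward in the HSC gate (1.07) and the megakaryocyte gate (1.26). With 1 more marker required in each gate, Snhg9 passed 2-fold downward in the megakaryocyte gate (-1.31) and the MHC class II gate (-1.18). Across the 5 gates, 94.3% to 98.0% of genes had a lower ratio than Snhg6.

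**Figure D3:**
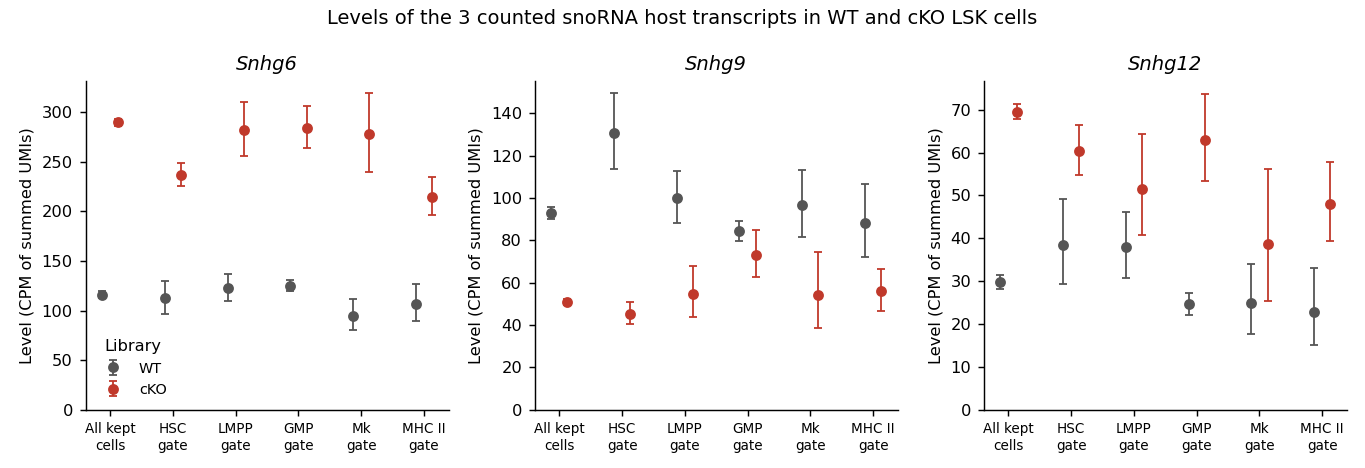
Levels in CPM of Snhg6, Snhg9 and Snhg12 in all kept cells and in 5 lineage gates (Mk is megakaryocyte) for WT (grey) and cKO (red); bars are exact 95% Poisson intervals. Snhg6 in cKO lies above WT in every class, and the Snhg9 intervals overlap only in the GMP gate.

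Cycle gates were defined by 3 or more of 13 S phase or 14 G2/M genes. They held 25.1% of WT and 32.3% of cKO cells (S) and 30.1% and 25.6% (G2/M). Snhg6 was at 125 and 290 CPM in cells of neither gate, 115 and 286 CPM in the S gate, and 110 and 294 CPM in the G2/M gate. Its ratio lay between 1.21 (1.14 to 1.29) and 1.42 (1.34 to 1.49), so the difference was at least 2-fold in each of these 3 classes, which were not matched for depth. In WT, Snhg12 and Snhg9 were lower in the G2/M gate than outside the cycle gates, at 22.8 against 39.4 CPM and 68.4 against 120 CPM. In cKO the corresponding values were 66.5 against 79.4 CPM for Snhg12 and 41.5 against 55.7 CPM for Snhg9. The ratio of Snhg12 was 1.01 (0.87 to 1.15) in neither gate, 1.06 (0.90 to 1.24) in S and 1.54 (1.39 to 1.70) in G2/M, and that of Snhg9 was -1.10 (-1.20 to -1.0), -0.87 and -0.72 (-0.84 to -0.60). HSC-gated cells of neither cycle gate gave 0.89 (0.62 to 1.18) for Snhg6, 0.51 (0.06 to 1.01) for Snhg12 and -1.53 (-1.85 to -1.20) for Snhg9. Snhg6 was also under 2-fold in cells of neither cycle gate in the LMPP (0.81) and MHC class II (0.84) gates, and in MHC class II cells of the S gate (0.95). In the other combinations of a lineage and a cycle gate that held 50 cells in both libraries, it was above 2-fold.

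**Figure D4:**
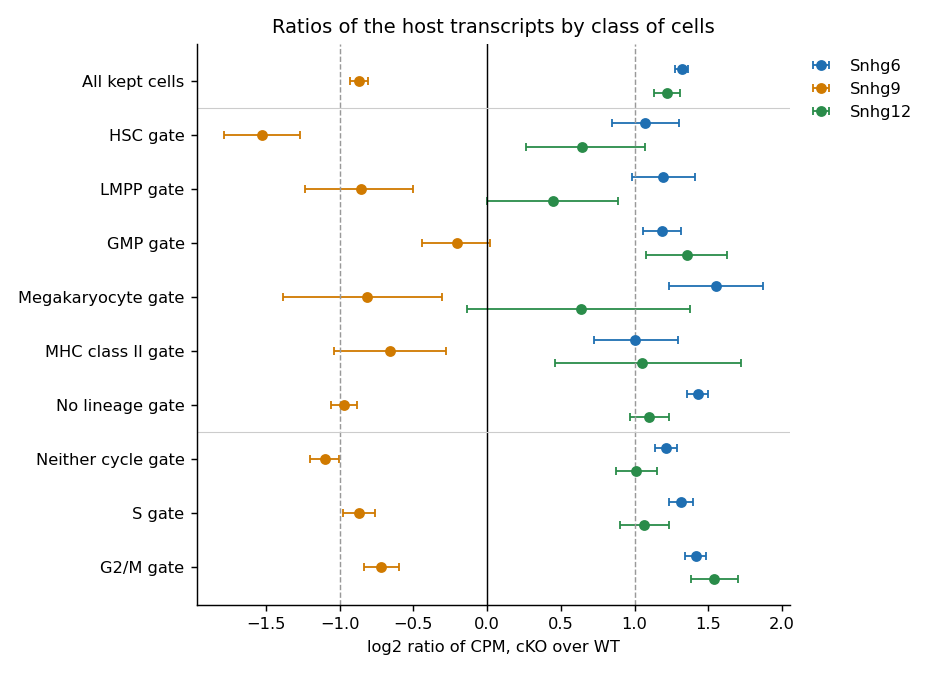
Log2 ratio of CPM, cKO over WT, for the 3 hosts in all kept cells, the lineage gates, ungated cells and the cycle gates; bars are exact 95% conditional binomial intervals and dashed lines mark 2-fold. Snhg6 lies at 1.0 or above in every class drawn, and Snhg9 ranges from -1.53 (HSC gate) to -0.20 (GMP gate).

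Snhg9 and Snhg6 each overlap another gene. Snhg9 lies wholly within Rps2 (chr17:24718116-24721929, plus strand), a ribosomal protein of the small subunit, with levels of 2473 CPM (WT) and 3784 CPM (cKO) (log2 ratio 0.61, 0.60 to 0.62). The pair overlaps on opposite strands, and the 10x 3′ protocol keeps the strand. The nearest start that faces away from Snhg9 is that of Snora64, 807 bases from it, a snoRNA inside Rps2 with no row in the matrices. The final 127 bases of Snhg6 overlap the 3′ end of Mcmdc2 on the plus strand, a gene known from meiotic recombination. Mcmdc2 had 120 UMIs in WT and 70 UMIs in cKO (2.82 and 0.795 CPM), below the minimum for comparison. No gene start faced away from Snhg6 or Snhg12 within 2000 bases.

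Other hosts and the machinery of snoRNAs were read from lists. Of 12 other noncoding hosts, 6 had a row and 3 reached 5 CPM, with a median log2 ratio of 0.47 and none at 2-fold. Zfas1, a host of C/D box snoRNAs listed as Zfos1 in the files, was at 330 and 600 CPM (0.86, 0.83 to 0.89), Epb41l4aos at 45.6 and 63.2 CPM (0.47) and Snhg20 at 47.6 and 43.0 CPM (-0.15, -0.23 to -0.07). Of 14 protein-coding hosts, 13 had a ratio above 0, beside 43.3% of all genes, with a median of 0.43, and 1 was at least 2-fold higher, beside 2.94% of all genes. That was Hspa9, the mitochondrial chaperone mortalin, at 161 and 389 CPM (1.27, 1.24 to 1.31). The lowest was Eif4a2, a translation initiation helicase, at 123 and 113 CPM (-0.12). The 16 snoRNP proteins and assembly factors had a median of 0.24, from Nop58 (0.67), a core C/D box protein whose gene is also a host, to Znhit3 (-0.12), and none reached 2-fold. Snhg6 and Snhg12 thus lay above the median of each of these lists, and Snhg9 below it.

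Factors of NMD and its known coding targets showed no common direction. Of 17 factors, 16 reached 5 CPM, 8 of them had a ratio above 0, and the median of -0.00 turned to 0.093 with size factors. The range ran from Upf2, a core factor, at 69.2 and 42.3 CPM (-0.71, -0.78 to -0.64), to Etf1, a release factor of translation, at 50.7 and 75.7 CPM (0.58, 0.51 to 0.65). Of 6 coding targets, 2 were at least 2-fold higher and 2 at least 2-fold lower, beside 2.94% and 5.24% of all genes, with a median of -0.34. With size factors Upp1 also reached 5 CPM, and the median of the 7 genes was 0.078, against -0.018 for the same 7 without them. Ddit3, a stress factor that ATF4 induces, was the highest at 22.5 and 97.1 CPM (2.11, 2.01 to 2.21). Atf3, an immediate early gene, was the lowest at 10.2 and 1.48 CPM (-2.78, -3.08 to -2.50). Both also answer to other inputs than decay. By gate, the median of the targets was -0.81 (HSC), -0.18 (LMPP), 1.0 (GMP), 0.22 (megakaryocyte) and 0.054 (MHC class II), and that of the factors -0.19, -0.16, 0.17, -0.098 and -0.045, so the sign of both medians differed between gates.

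TOP mRNAs, whose starts resemble those of many hosts, were mostly somewhat higher. Of 15 coding TOP mRNAs outside the ribosomal proteins, 13 had a ratio above 0, beside 43.3% of all genes, with a median of 0.37. Rack1, a protein of the small ribosomal subunit, was the highest at 698 and 1223 CPM (0.81), and Pabpc1, the poly(A)-binding protein, the lowest at 1426 and 1086 CPM (-0.39). Of 83 cytosolic ribosomal protein genes at 5 CPM or more, 74 were above 0, with a median of 0.29, from Rps27l (0.74) to Rpl35 (-0.58). None of either list reached 2-fold over all kept cells, against 2 of the 3 hosts upward, where 2.94% of all genes did so upward and 5.24% downward. In cells with 2000 to 4000 UMIs and with 4000 to 8000 UMIs, no host reached 2-fold.

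**Figure D5:**
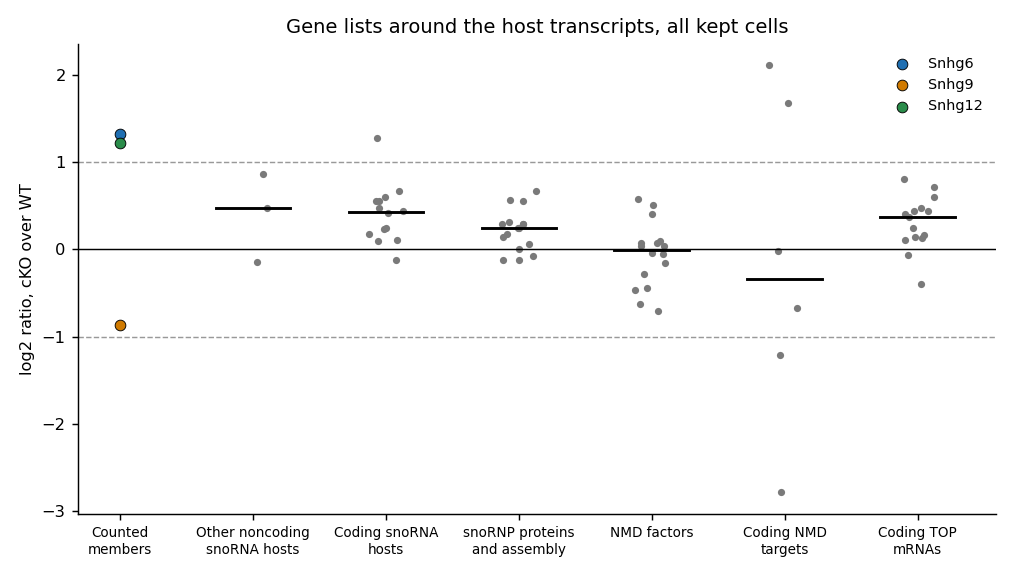
Log2 ratio of cKO over WT over all kept cells for the 3 hosts (coloured) and for the genes of 6 lists at 5 CPM or more (grey); black bars are list medians, dashed lines mark 2-fold, and NMD is nonsense-mediated decay. Snhg6 and Snhg12 stand above every gene of the other noncoding host, snoRNP, NMD factor and TOP lists, and Hspa9 and the NMD targets Ddit3 and Atf4 reach similar or higher ratios.

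Over the 5 gates in both libraries (10 values per gene), the summed hosts were most alike in log2(CPM + 1) to Btf3 (Pearson r = 0.977), Eef1a1 (0.963), Snx5 (0.961), Epb41l4aos (0.961) and Mrpl9 (0.957) among 2939 genes at 50 CPM or more. Btf3 is a subunit of the nascent polypeptide-associated complex, Eef1a1 the elongation factor that delivers aminoacyl-tRNA, Epb41l4aos another snoRNA host, and both Btf3 and Eef1a1 are on the TOP list. Between hosts, r over the same values carried the difference between libraries and did not hold within them. Snhg6 and Snhg12 had r = 0.821 over the 10 values, 0.390 over the 5 WT gates and -0.022 over the 5 cKO gates. Snhg6 and Snhg9 had r = -0.827, and within the libraries -0.076 (WT) and 0.469 (cKO), while Snhg9 and Snhg12 had r = -0.573, and within them 0.795 (WT) and 0.217 (cKO). The most alike genes of each host were looked up after the values were seen, over the 10 values only. They were Rps12 (0.992), Rpl19 (0.990) and Rps20 (0.989), all of them ribosomal protein genes, for Snhg6, with Atf4 (0.986) next. For Snhg12 the most alike was Zfas1 (0.940), and for Snhg9 it was Snx14 (0.955), at 236 CPM in WT cells and 21.3 CPM in cKO cells. The 10 values share 2 libraries that differ in depth, and these correlations are given as a description.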

How the data were processed

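Single-cell libraries of sorted LSK cells, 1 from WT and 1 from cKO mice, were analysed as UMI counts per gene and barcode, deposited by the authors without normalization (Cell Ranger 6.0.0 and mm10 in the submitters' processing notes). The labels name v2 and the study's methods v3 chemistry of the 10x 3′ kit. The study's limits were applied: more than 200 genes, fewer than 4000 (WT) or 4500 (cKO) genes, under 10% (WT) or 5% (cKO) mitochondrial and under 5% haemoglobin UMIs. Likely doublets, scored against simulated ones (50 neighbours, 20 principal components, 1500 genes), were removed, 614 in WT and 671 in cKO. Levels are CPM of UMIs summed over cells with exact Poisson intervals, and ratios add 0.5 UMIs to each sum and have exact conditional binomial intervals (scipy 1.17.1), tested on simulated data. Gates used cells thinned to 2000 UMIs, leaving out 196 WT and 105 cKO cells, and cells passing several gates (678 and 174) were kept apart. Alternatives included the TMM factor of edgeR 4.0.16. Figures were drawn with matplotlib 3.10.9. Sequences came from GENCODE M21 and RefSeq.

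The members and lists were chosen with earlier results of these data known. By the rule set beforehand, named are the members, overlapping or neighbouring genes, the extremes of each list at 5 CPM, the 5 genes most alike to the summed members, and Trmt6, Kit, Ly6a and Cd34 as checks. Named outside that rule are the genes most alike to single hosts, Epb41l4aos as the third other noncoding host at 5 CPM, Upp1, and Atf4 in a figure caption. Gas5 had no row, so the planned sum without it and its most similar genes could not be made. Cells of matched depth within gates were compared after the data were seen.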

Additional observations from a re-analysis of the deposited data

How the results depend on the processing

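No paired analysis was possible because each genotype had 1 library, and for the same reason no replicate could be left out. Snhg6 kept log2 ratios of 0.87 to 1.42, Snhg12 of 0.93 to 1.32 and Snhg9 of -1.10 to -0.58 under 11 alternatives over all cells. The summed members (0.78) gave 0.87 with the TMM factor, 0.88 with median-of-ratios factors or without mitochondrial and ribosomal protein genes in the total, 0.60 with each cell scaled first, 0.56 in thinned cells, 0.48 in cells with 4000 to 8000 UMIs, 0.74 with cKO gates weighted to the WT mix and 0.58 in cells of neither cycle gate. Members at least 2-fold higher (2) numbered 1 with each cell scaled first (2.65% of all genes) or thinned (2.67%) and 0 at 4000 to 8000 UMIs (4.66%). Members at least 2-fold lower (0) numbered 1 in thinned cells (5.62% of all genes) and in neither cycle gate (7.17%), and 1 also passed a limit of 1.5-fold (13.6%). Gating on all UMIs gave sums of 0.58 (HSC), 0.85 (LMPP), 0.96 (GMP) and 0.84 (MHC class II) and moved Snhg9 in the GMP gate to -0.61. A marker more gave a sum of 0.40 for LMPP (39 cKO cells). It turned Snhg9 in the GMP gate from -0.20 to 0.17 (48 cKO cells) and moved it to -1.31 (megakaryocyte, 15 cKO cells) and -1.18 (MHC class II, 95 cKO cells). Without mitochondrial and ribosomal protein genes the sums were 0.68 (neither cycle gate), 0.80 (S) and 1.10 (G2/M), and 4 or more cycle genes gave 0.79 for S. The cause of these changes was not tested.

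Median-of-ratios factors gave list medians of 0.57 (other noncoding hosts), 0.53 (coding hosts), 0.34 (snoRNP), 0.093 (NMD factors), 0.078 (NMD targets, with 7 in place of 6 genes at the minimum), 0.47 (TOP mRNAs) and 0.38 (ribosomal proteins). In the HSC gate the medians were 0.20 (other noncoding hosts), -0.19 (NMD factors), -0.81 (NMD targets), 0.31 (TOP mRNAs) and 0.33 (ribosomal proteins). NMD factors stood at 0.034 with a minimum of 1 CPM, 10 CPM or none, NMD targets at -0.018 with 1 CPM or none and -0.67 with 10 CPM, and other noncoding hosts at 0.16 with none. Counting cells of several gates in each gate, an alternative chosen after seeing the data, kept every value of the 5 gates within its interval. The 214 cKO cells of the shallowest band limit the precision there, as the printed intervals show.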
